A study of Rattus norvegicus with 15 samples.

Results

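The strain difference in the inferior colliculus (IC), the midbrain relay of the auditory pathway, was compared between rats exposed to sound and naïve rats, gene by gene. The Wistar Audiogenic Rat (WAR) is an inbred strain selected from Wistar rats for seizures evoked by loud sound. All 15 arrays of the series entered the comparison. They came from male rats of 12 weeks and fell into 4 groups: 5 arrays of stimulated WAR (WAR S), 2 of stimulated Wistar (Wistar S), 4 of naïve WAR (WAR N) and 4 of naïve Wistar (Wistar N). Stimulated animals were exposed to sound, and the IC of both sides was collected 60 min later. According to the methods WAR S rats convulsed and Wistar S rats did not, so sound and seizure cannot be told apart within WAR. The naïve state of 8 arrays rests on titles that lack the word stimulated, since the general protocol describes sound-exposed animals only. The methods also give other numbers of stimulated rats than the arrays labelled so, and the groups here follow the labels. The Wistar control rats were of the Wistar albino stock, so strain also includes the stock and the source of the animals.

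The quantity followed is the interaction of strain and sound: the log2 difference WAR S minus Wistar S, less the log2 difference WAR N minus Wistar N. A positive value means that WAR was higher relative to Wistar with sound than without it. It was tested for 14506 genes, each represented by 1 probe set, with limma over all 15 arrays and a threshold of 0.05 on the adjusted p. Genes past it were classed by their strain differences. The strain difference "appears" where only the stimulated one passed its own threshold, "vanishes" where only the naïve one did, and "flips" where both did in opposite directions.

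As background, sound drives IC neurons, and strong firing or a seizure switches on immediate early genes within minutes. These encode transcription factors such as those of the Egr, Fos and Nr4a families and signalling proteins such as Rgs2, and need no new protein for their induction. Their mRNA is therefore a usual readout of recent neuronal activity. Genes of metabolism, protein turnover or vesicle transport are not usually counted among them.

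Each strain difference was taken inside its own set of arrays, because the stimulated and the naïve arrays appeared to come from separate normalization runs. Any 2 stimulated arrays shared 2675 to 3286 probe sets with identical values, any 2 naïve arrays 2 to 13, and a stimulated and a naïve array 0. A shift common to all arrays of a run cancels in the interaction, while levels cannot be compared across runs. Other differences between the runs, such as in the size of differences between arrays, do not cancel. Sound and run coincide, so their effects on a strain difference cannot be told apart. In what follows, with and without sound therefore means in the stimulated and in the naïve arrays. The median SD within a group was 0.20 in Wistar N, 0.13 in WAR N, 0.095 in WAR S and 0.045 in Wistar S on the log2 scale.

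The Wistar N arrays did not form 1 group. On the first component of the naïve arrays, which held 62.8% of the variance, Wistar N replicates 2, 3 and 4 lay at 32.0, 32.4 and 36.9. Wistar N replicate 1 lay at -23.2, next to the WAR N arrays at -22.7 to -12.7. On the second component, with 14.3% of the variance, it lay at -26, apart from the WAR N arrays at -2.81 to 16.01. No source used here calls either kind an error, so all were kept. The genes past the threshold and the gene lists are also described without replicates 2, 3 and 4 or without replicate 1 where that moved them. The running numbers in the labels split the arrays into 2 sets, but both kinds of Wistar N array occur in label set 1, and Wistar S lies in label set 1 alone.

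**Figure D1:**
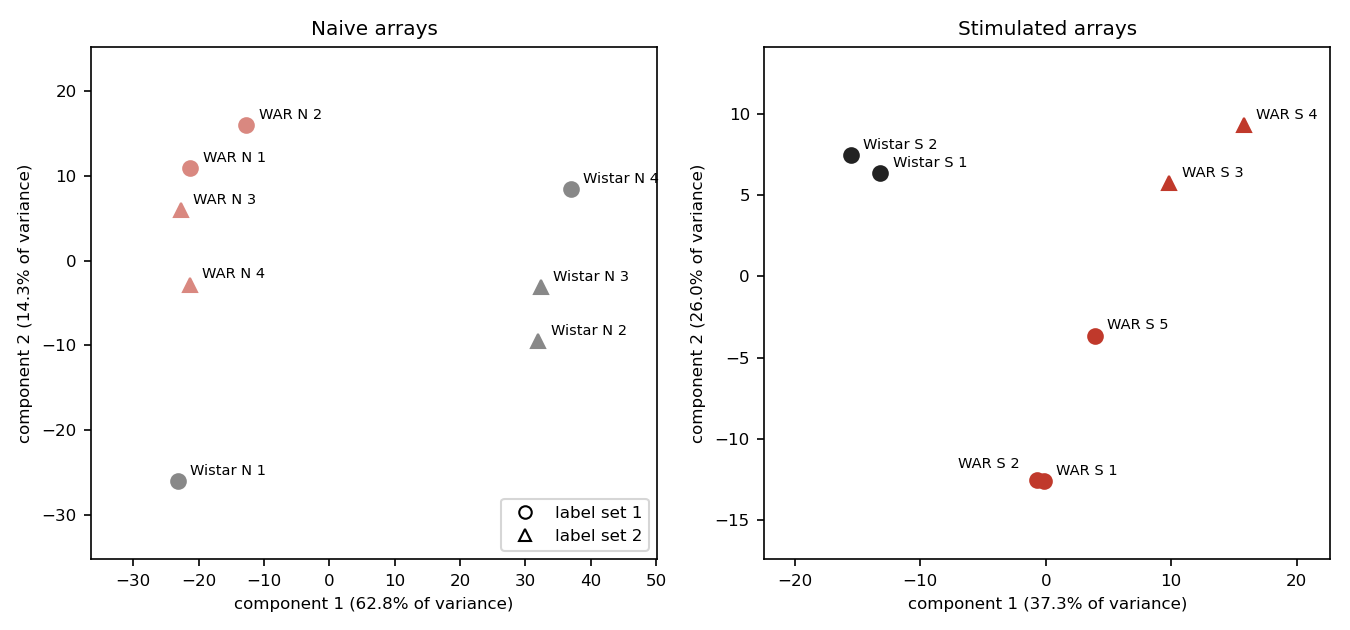
First 2 principal components of the log2 values of 14506 genes, for the 8 naïve arrays (left) and the 7 stimulated arrays (right), with 1 point per array, colours for the groups and symbols for the label sets. Wistar N replicate 1 lies with the WAR N arrays on the first naïve component (-23.2), far from the other 3 Wistar N arrays (32.0 to 36.9). On the second it lies apart from the WAR N arrays (-26).

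The interaction passed the threshold for 15 of 14506 genes (0.103%), with 9 genes higher (0.0620%) and 6 lower (0.0414%). The split was 30 higher and 12 lower after cyclic loess within each run, and 27 and 9 after subtraction of each array's median. At an unadjusted p of 0.05 it held 2171 genes (15.0%), 1063 higher (7.33%) and 1108 lower (7.64%). Of the 15 genes, the strain difference vanished with sound in 12, flipped in 2 and appeared in 1. The arrays of the strains did not overlap for 7 of the 15 with sound (20.7% of all genes), for 12 without it (13.4%) and for 4 in both (4.40%), counts that the choice by interaction bears on. Without Wistar N replicates 2, 3 and 4, which leaves 1 Wistar N array that is assumed to vary like the other groups, 531 genes passed (3.66%), 14 of the 15 among them with the same sign. Without Wistar N replicate 1, 2956 genes passed (20.4%), including all 15 with the same sign. These reduced sets, which share all arrays but Wistar N, had 66 calls of the same sign in common and 53 of opposite sign. Leaving out any other single array gave 0 to 62 genes, with 0 without Wistar S replicate 2 and 62 without WAR N replicate 4.

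Far more genes differed between the strains without sound than with it, although the ratio depended on how the spread was estimated. WAR N and Wistar N differed in 3037 genes (20.9%), 1677 higher (11.6%) and 1360 lower (9.38%) in WAR, against 60 genes (0.414%), 31 higher (0.214%) and 29 lower (0.200%), for WAR S and Wistar S. After subtraction of each array's median the naïve split was 1139 higher and 2071 lower. With a separate spread for each run the counts were 879 naïve and 274 stimulated genes, and with array weights 1357 and 710. The median size over all genes was 0.16 in naïve and 0.07 in stimulated arrays. Of the 60 genes, 55 had a naïve difference of the same sign, 38 of them called there too, and 3 passed the interaction: *Fis1*, *Gulp1* and *Cisd3*. Of the same 60 genes, 20 were not called in the naïve arrays, and most of these are among the 55 of the same sign. Of those 20, *Cisd3* alone was shown to differ between the runs. Of the 3037 naïve calls, 2520 were smaller by a factor of over 2, or of opposite sign, in the stimulated arrays, and 14 passed the interaction. The naïve counts moved with the Wistar N arrays, to 1677 genes without replicates 2, 3 and 4 and 5968 without replicate 1.

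**Figure D2:**
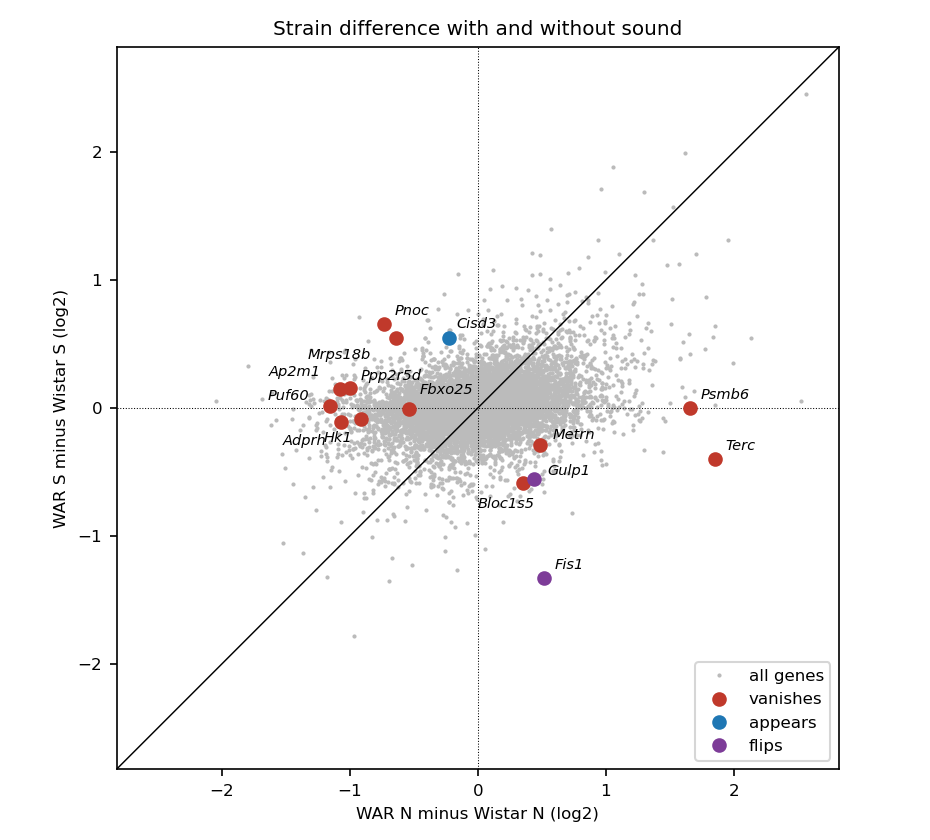
Strain difference in stimulated arrays (WAR S minus Wistar S, y axis) against that in naïve arrays (WAR N minus Wistar N, x axis), both in log2, for 14506 genes (grey) and the 15 genes past the interaction threshold (coloured by class). Genes on the diagonal line had equal strain differences. The genes that vanish lie off it near a y value of 0 or on the opposite side, and *Fis1* and *Gulp1* lie in the quadrant of opposite signs.

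The strain difference flipped for *Fis1* and *Gulp1*, both higher in WAR than Wistar without sound and lower with it. *Fis1* encodes an outer-membrane protein that takes part in mitochondrial fission. Its log2 values were 10.44, 9.98, 9.96 and 9.92 in Wistar N and 10.38, 10.41, 11.04 and 10.55 in WAR N. They were 11.94 and 11.87 in Wistar S and 10.46, 10.54, 10.69, 10.91 and 10.29 in WAR S. Both Wistar S arrays lay above every WAR S array, whereas in naïve arrays Wistar N replicate 1 fell within the WAR N range and the other 3 below it. WAR was 2.51-fold lower with sound (log2 difference -1.32, adjusted p = 0.00760) and 1.43-fold higher without (0.52, adjusted p = 0.0361). The interaction was -1.84 ± 0.25 (SE, adjusted p = 0.0126), -1.48 without Wistar N replicates 2, 3 and 4 (adjusted p = 0.0280) and -1.96 without replicate 1. With replicate 1 as the sole Wistar N array the naïve difference was 0.15, so the naïve side of the flip rests on the other 3 arrays. In pieces of whole tissue, fewer cells of a type and less RNA per cell cannot be told apart.

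*Gulp1*, an adaptor in the engulfment of dying cells, flipped with clear separation in both runs. Its log2 values were 7.44, 7.35, 7.38 and 7.32 in Wistar N against 7.95, 7.87, 7.78 and 7.67 in WAR N. With sound they were 8.26 and 8.51 in Wistar S against 7.82, 7.93, 7.80, 7.66 and 7.93 in WAR S. All WAR N arrays were above all Wistar N arrays, and all WAR S arrays were below both Wistar S arrays. The difference was 0.44 without sound (1.36-fold, adjusted p = 0.00292) and -0.55 with it (1.47-fold lower, adjusted p = 0.0212). The interaction was -0.996 ± 0.13 (SE, adjusted p = 0.00814), with 95% limits of -1.27 and -0.72, and stayed at -0.93 without Wistar N replicates 2, 3 and 4. Arrays that did not overlap in either run, with opposite order, were seen in 72 of all genes (0.496%).

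*Cisd3*, which encodes a small iron-sulphur protein of mitochondria, was the 1 gene whose strain difference appeared with sound. Its values were 8.00 and 7.98 in Wistar S and 8.54, 8.47, 8.59, 8.61 and 8.47 in WAR S, without overlap. In naïve arrays they were 8.74, 9.15, 8.89 and 8.84 in Wistar N and 8.59, 8.69, 8.59 and 8.82 in WAR N, which overlapped. WAR was 1.46-fold higher with sound (log2 0.55, adjusted p = 0.0268), and the naïve difference of -0.23 missed its threshold (adjusted p = 0.0705). The interaction was 0.78 ± 0.13 (SE, adjusted p = 0.0430) and was 0.61 without Wistar N replicates 2, 3 and 4.

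Among the 12 genes whose strain difference vanished, *Psmb6*, *Terc*, *Bloc1s5* and *Metrn* were higher in WAR N than Wistar N and had negative interactions. *Psmb6* encodes a catalytic subunit of the proteasome core. Its log2 values were 9.39, 8.87, 8.59 and 8.93 in Wistar N and 10.61, 10.66, 10.72 and 10.45 in WAR N. In stimulated arrays they were 10.89 and 10.78 in Wistar S and 10.81, 10.96, 10.64, 10.82 and 10.94 in WAR S. The naïve groups were separated, whereas the stimulated groups overlapped. WAR N was 3.17-fold above Wistar N (adjusted p = 1.43e-05), and the stimulated difference was 0.0029, with 95% limits of -0.33 and 0.34. The interaction was -1.66 ± 0.21 (SE, adjusted p = 0.00814) and -1.22 without Wistar N replicates 2, 3 and 4.

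*Terc*, the RNA template of telomerase, had the largest interaction of the 15 genes in size, -2.25 ± 0.38 (SE, adjusted p = 0.0430). Wistar N arrays read 9.04, 7.98, 7.66 and 7.61, and WAR N arrays 10.08, 9.70, 9.80 and 10.12. Wistar S arrays read 10.66 and 10.44, and WAR S arrays 10.05, 10.05, 10.08, 10.06 and 10.52. Every WAR N array was above every Wistar N array, and the stimulated groups overlapped through WAR S replicate 5. The interaction fell by over 1.5 times in size, to -1.28, without Wistar N replicates 2, 3 and 4.

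*Bloc1s5*, a subunit of the complex that builds lysosome-related organelles, was close to a flip. With sound its values were 9.78 and 9.75 in Wistar S and 9.26, 9.26, 9.21, 8.92 and 9.22 in WAR S, a log2 difference of -0.59 whose adjusted p of 0.0504 lay just outside the threshold. In naïve arrays they were 8.63, 9.03, 8.64 and 8.79 in Wistar N and 9.26, 8.97, 9.21 and 9.09 in WAR N. The stimulated groups were thus separated and the naïve groups overlapped by 1 array. The interaction was -0.94 ± 0.16 (SE, adjusted p = 0.0430). *Metrn*, a secreted factor of glia and progenitors that promotes neurite growth, also changed order without overlap in either run. WAR N (8.64, 8.50, 8.74 and 8.58) was above Wistar N (8.12, 8.33, 7.99 and 8.08), and WAR S (8.72, 8.88, 8.95, 8.70 and 8.85) was below Wistar S (9.10 and 9.12). Its interaction was -0.78 ± 0.13 (SE, adjusted p = 0.0430), with a stimulated difference of -0.29 that did not pass (adjusted p = 0.403).

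The other 8 genes that vanished, *Adprh*, *Hk1*, *Fbxo25*, *Ap2m1*, *Puf60*, *Ppp2r5d*, *Pnoc* and *Mrps18b*, were lower in WAR N than Wistar N and had positive interactions. *Adprh* encodes the hydrolase that removes ADP-ribose from arginine in proteins. Its values were 9.36, 9.56, 9.50 and 9.21 in Wistar N and 8.40, 8.29, 8.32 and 8.32 in WAR N. With sound they were 8.87 and 8.73 in Wistar S and 8.73, 8.73, 8.59, 8.73 and 8.68 in WAR S. All Wistar N arrays lay above all WAR N arrays, and the stimulated groups met at 8.73. WAR N was 2.10-fold lower (adjusted p = 4.98e-06), the stimulated difference was -0.11, and the interaction was 0.97 ± 0.12 (SE, adjusted p = 0.00814). It varied little with the Wistar N arrays, at 0.92 without replicates 2, 3 and 4 and 0.98 without replicate 1.

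*Hk1* encodes the main brain hexokinase, the entry step of glycolysis. It read 10.47, 10.71, 10.78 and 10.60 in Wistar N, 9.70, 9.78, 9.53 and 9.87 in WAR N, 10.07 and 10.18 in Wistar S and 9.996, 10.07, 10.07, 9.999 and 10.07 in WAR S. The naïve groups were apart and the stimulated groups met at 10.07. WAR N was 1.89-fold lower and the interaction was 0.83 ± 0.13 (SE, adjusted p = 0.0271). *Fbxo25*, an F-box protein of a ubiquitin ligase, had the smallest interaction of the 15 genes, 0.53 ± 0.09 (SE, adjusted p = 0.0438). Its naïve values were 9.63, 9.49, 9.62 and 9.70 in Wistar N and 9.14, 9.05, 9.08 and 9.04 in WAR N. Its stimulated values were 9.28 and 9.28 in Wistar S and 9.28, 9.29, 9.20, 9.28 and 9.34 in WAR S, a difference of -0.0037. Such repeated values were found for 9 of the 15 genes and 8411 of all genes (58.0%), and they narrow the spread among stimulated arrays.

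*Ap2m1* encodes the cargo-binding subunit of the AP-2 adaptor of clathrin-coated vesicles, which recycles synaptic vesicle membrane. Its naïve values were 11.47, 11.93, 12.15 and 12.08 in Wistar N and 10.74, 10.76, 10.84 and 10.98 in WAR N, 2.11-fold lower in WAR. The stimulated values overlapped, at 10.71 and 10.82 in Wistar S and 10.82, 10.91, 11.12, 10.92 and 10.82 in WAR S. The interaction was 1.23 ± 0.20 (SE, adjusted p = 0.0388), but 0.79 without Wistar N replicates 2, 3 and 4. *Puf60*, a splicing factor, read 10.12, 10.45, 10.78 and 10.70 in Wistar N against 9.24, 9.39, 9.42 and 9.36 in WAR N. With sound *Puf60* read 9.34 and 9.34 in Wistar S and 9.36, 9.40, 9.34, 9.56 and 9.12 in WAR S. Its interaction was 1.17 ± 0.19 (SE, adjusted p = 0.0430), and 0.78 without Wistar N replicates 2, 3 and 4. *Ppp2r5d*, a regulatory subunit of protein phosphatase 2A, read 9.47, 9.84, 9.77 and 9.37 in Wistar N and 8.53, 8.55, 8.53 and 8.85 in WAR N. With sound it read 8.81 and 9.02 in Wistar S and 9.08, 9.21, 9.03, 9.02 and 9.02 in WAR S, which met at 9.02. Its interaction was 1.15 ± 0.17 (SE, adjusted p = 0.0234).

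*Pnoc* and *Mrps18b* were lower in WAR without sound and higher with it, with arrays that did not overlap in either run. *Pnoc* is the precursor of the opioid-like peptide nociceptin, and was the 1 neuropeptide gene past the threshold. It read 7.92, 8.69, 8.50 and 8.51 in Wistar N and 7.54, 7.76, 7.54 and 7.87 in WAR N, against 7.47 and 7.46 in Wistar S and 8.29, 7.97, 7.98, 8.35 and 8.05 in WAR S. The naïve difference was -0.73 (1.66-fold lower, adjusted p = 0.00430) and the stimulated difference 0.66 (1.58-fold higher), the latter with an adjusted p of 0.164. The interaction was 1.39 ± 0.23 (SE, adjusted p = 0.0430), but 0.91 without Wistar N replicates 2, 3 and 4, where the naïve difference was -0.25. *Mrps18b*, a protein of the small mitochondrial ribosomal subunit, read 8.81, 8.81, 8.89 and 8.91 in Wistar N and 7.94, 8.14, 8.15 and 8.62 in WAR N. Its stimulated values were 8.11 and 7.81 in Wistar S and 8.39, 8.40, 8.66, 8.75 and 8.34 in WAR S. The interaction was 1.19 ± 0.21 (SE, adjusted p = 0.0438) and missed the threshold without Wistar N replicates 2, 3 and 4 (1.15, adjusted p = 0.0516). By unadjusted p, *Pnoc*, *Mrps18b*, *Bloc1s5*, *Metrn* and *Cisd3* would join *Fis1* and *Gulp1* as genes that flip, 7 in all.

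**Figure D3:**
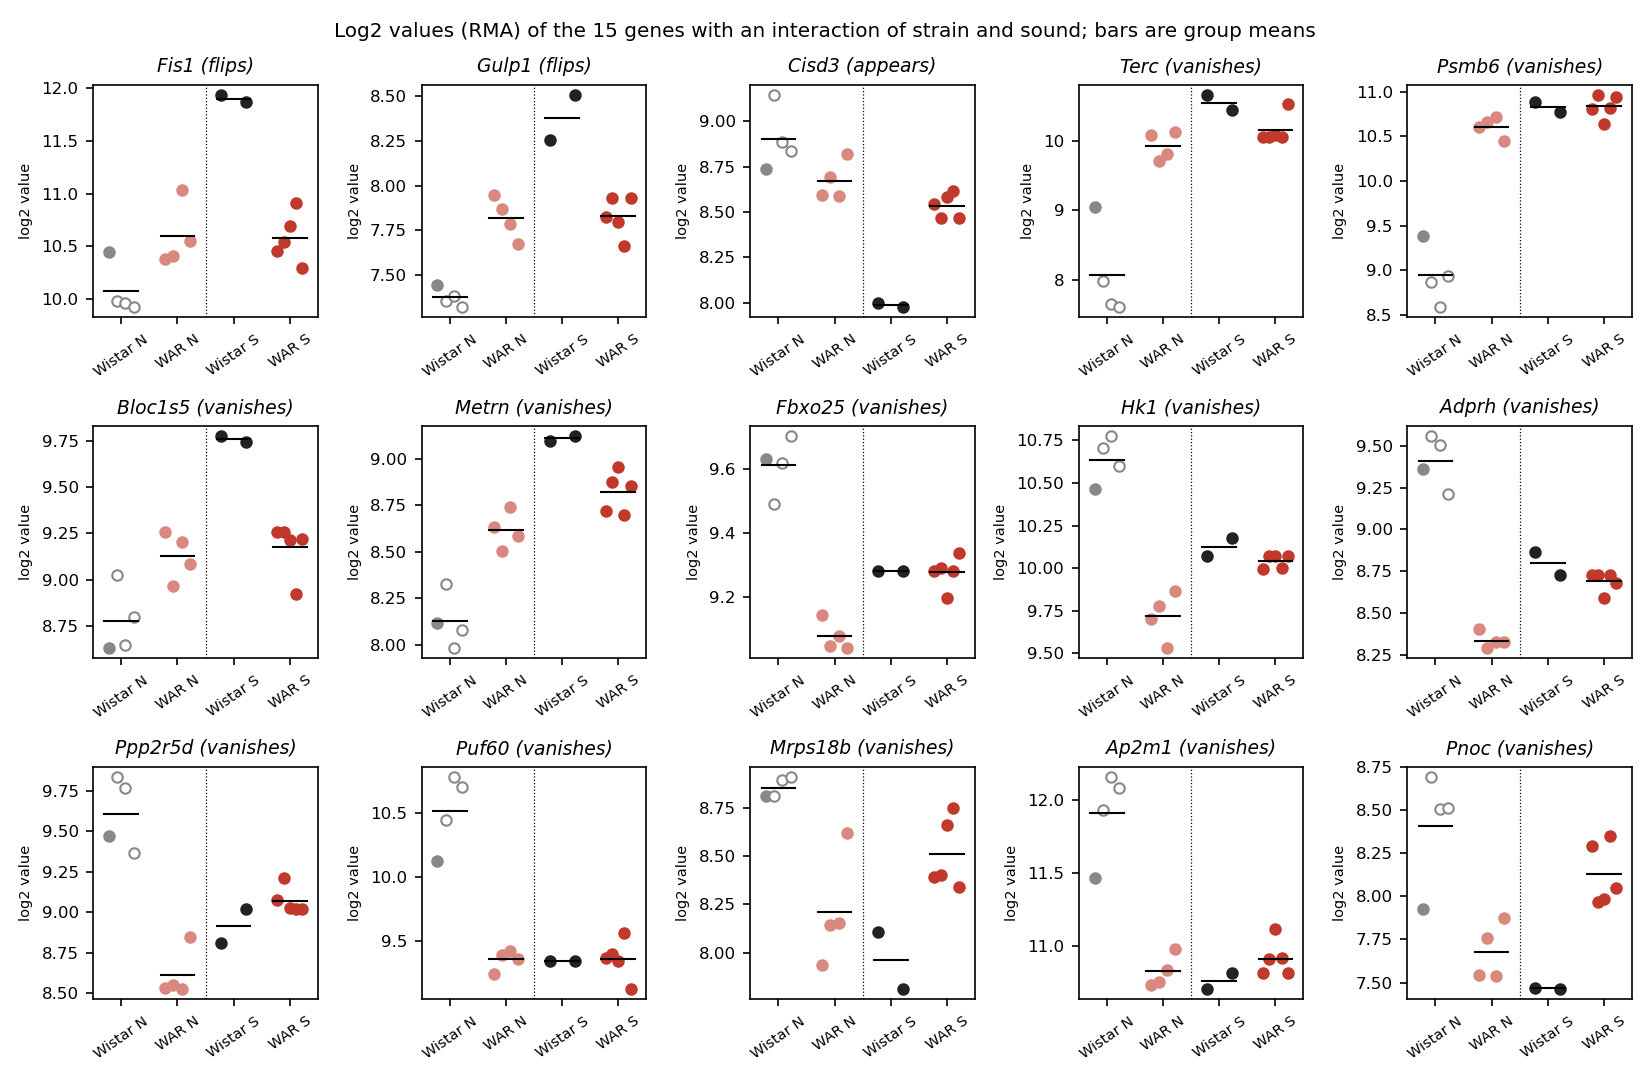
Log2 values of the 15 genes past the interaction threshold in each array (points) with group means (bars), for Wistar N, WAR N, Wistar S and WAR S; open points are Wistar N replicates 2, 3 and 4, and the dotted line parts the naïve from the stimulated run, whose levels are not comparable. In *Psmb6* the naïve groups are apart (8.59 to 9.39 against 10.45 to 10.72) and the stimulated groups overlap, and in *Gulp1* the order of the strains is reversed.

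The 15 genes differed in how well their calls held. *Adprh* and *Gulp1* passed in 14 of the 15 sets that left out 1 array, failing without Wistar S replicate 2, and *Psmb6* and *Fis1* in 13, failing without either Wistar S array. The other 11 genes passed in 2 to 5 of these sets, always including those without Wistar N replicate 1 and without WAR N replicate 4. Their values moved much less than their calls: *Hk1* ranged from 0.77 to 0.89, *Cisd3* from 0.69 to 0.83 and *Terc* from -2.57 to -2.09. Within label set 1, which holds all 4 groups in 9 arrays, every one of the 15 interactions kept its sign, from -1.90 for *Terc* to 1.24 for *Mrps18b*. These 9 arrays are among those by which the 15 genes were chosen, so kept signs were likely beforehand. None of the 15 genes passed in label set 1: the smallest adjusted p in that set was 0.317, while 1109 genes had an unadjusted p below 0.05.

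**Figure D4:**
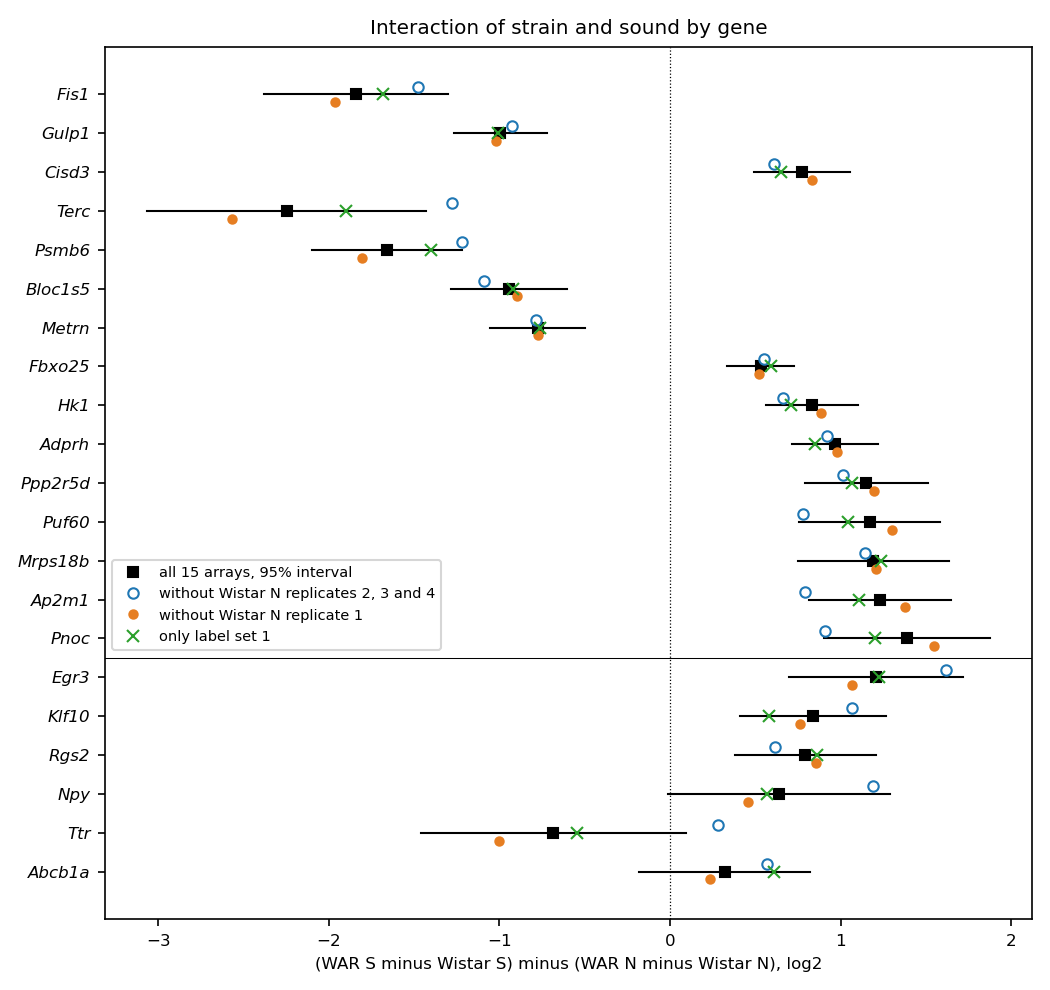
Interaction of strain and sound in log2 for the 15 genes past the threshold (above the line) and 6 further genes (below it). Squares and bars give the estimate from all 15 arrays with its 95% interval, open circles the value without Wistar N replicates 2, 3 and 4, filled circles that without replicate 1, and crosses that in label set 1. The markers of each of the upper 15 genes lie on 1 side of 0, whereas *Ttr* ranges from -1.004 to 0.28. The upper 15 genes were chosen by the estimate from all 15 arrays, and the other markers reuse arrays of that estimate.

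The next gene by p among positive interactions and the next 4 among negative ones did not pass. The positive one was *Golga2*, a Golgi scaffold protein, with an interaction of 0.73 ± 0.13 (SE, adjusted p = 0.0514). Of the negative ones, the mitochondrial translation factor *Guf1* came first with -0.52 (adjusted p = 0.0514), the histone gene *H2bc18* with -0.80 (adjusted p = 0.0520), *Ly96*, the partner of Toll-like receptor 4, with -1.34 (adjusted p = 0.0567) and *Sumo2*, a ubiquitin-like modifier, with -0.69 (adjusted p = 0.0637). Against them, the 2 genes just inside the threshold were *Fbxo25* and *Mrps18b*, both at an adjusted p of 0.0438. In *Ly96* the naïve groups were apart, with 6.28, 5.36, 5.61 and 5.79 in Wistar N and 7.13, 6.93, 6.81 and 6.72 in WAR N. Its stimulated values were 7.44 and 7.56 in Wistar S and 7.39, 7.39, 6.997, 7.39 and 7.33 in WAR S, a difference of -0.20.

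*Egr3*, an activity-induced transcription factor, had the largest interaction among the genes that the study followed by PCR, but did not pass over all arrays. Its log2 values were 7.91, 7.68, 7.36 and 7.04 in Wistar N and 7.16, 7.35, 7.31 and 7.55 in WAR N. With sound they were 7.78 and 7.82 in Wistar S and 8.72, 8.71, 9.04, 8.79 and 8.98 in WAR S. The naïve groups overlapped and every WAR S array lay above both Wistar S arrays. WAR was 2.07-fold higher with sound (log2 1.05, adjusted p = 0.0212) and the naïve difference was -0.16, with 95% limits of -0.49 and 0.17. The interaction was 1.21 ± 0.24 (SE, 95% limits 0.70 and 1.72, adjusted p = 0.0637). It passed without Wistar N replicate 1 (1.07, adjusted p = 0.00195) and also without replicates 2, 3 and 4 (1.62, adjusted p = 0.00849), as well as without Wistar N replicate 4 or WAR N replicate 4.

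*Rgs2*, a brake on G protein signalling and itself induced by activity, read 8.93, 9.35, 9.16 and 8.97 in Wistar N and 8.99, 9.17, 9.17 and 9.29 in WAR N. It read 8.95 and 8.89 in Wistar S and 10.09, 9.84, 9.57, 9.51 and 9.83 in WAR S. WAR was higher with sound by 0.85 (1.80-fold, adjusted p = 0.0212) and by 0.051 without, and the interaction of 0.79 ± 0.19 did not pass (SE, adjusted p = 0.110). It passed without Wistar N replicate 1 (0.85, adjusted p = 0.00552) and not without replicates 2, 3 and 4 (0.62, adjusted p = 0.161).

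For *Npy*, *Ttr*, *Abcb1a* and *Actb* no interaction was shown. *Npy*, which encodes neuropeptide Y, read 9.44 and 9.06 in Wistar S and 10.40, 10.26, 10.02, 10.20 and 10.08 in WAR S, and 10.05, 9.50, 9.56 and 8.90 in Wistar N and 9.67, 10.13, 9.57 and 9.83 in WAR N. Its interaction of 0.64 had 95% limits of -0.01 and 1.29 (adjusted p = 0.342), and reached 1.19 without Wistar N replicates 2, 3 and 4 (adjusted p = 0.0329). *Ttr* encodes transthyretin, the thyroxine carrier of the choroid plexus, and its naïve difference depended on 1 array. It read 6.50 in Wistar N replicate 1 and 5.17, 5.37 and 5.10 in the other 3, against 5.43, 5.31, 5.26 and 5.32 in WAR N. The interaction of -0.68 (adjusted p = 0.395) became 0.28 without replicates 2, 3 and 4 (adjusted p = 0.519) and -1.004 without replicate 1 (adjusted p = 0.000916).

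*Abcb1a*, the P-glycoprotein pump of brain endothelium, was higher in WAR in both runs, by 1.18 with sound (2.27-fold, adjusted p = 0.0109) and 0.86 without (1.82-fold, adjusted p = 0.00232). Neither run had overlapping arrays. Its interaction was 0.32, with 95% limits of -0.18 and 0.82 (adjusted p = 0.546), so a change of either sign with sound was compatible with the spread. *Actb*, which encodes β-actin, had an interaction of -0.06, with 95% limits of -0.43 and 0.32, and its sign turned in 5 of the 29 alternatives tried.

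Of the immediate early genes, 49 of 52 listed were measured, and 40 had a positive interaction, against 48.2% of all genes. None passed the adjusted threshold. At an unadjusted p of 0.05, 13 (26.5%) were higher and 0 were lower, against 7.33% and 7.64% of all genes. The median interaction of the list was 0.25, against -0.0089 over all genes, from a median strain difference of 0.19 with sound and 0.01 without. The mean log2 level of the list was 7.68 to 8.00 in the WAR S arrays and 7.55 to 7.57 in the Wistar S arrays, which did not overlap. Without sound the list overlapped, with WAR N arrays at 7.37 to 7.50 and Wistar N arrays at 7.44 to 7.60. The median of the list lay between 0.19 and 0.33 in all 30 alternatives, while the counts moved with the Wistar N arrays. Without replicates 2, 3 and 4 the median of the list was 0.28, against 0.018 over all genes in that set. Without replicate 1 the median of the list was 0.24. At an unadjusted p of 0.05, 19 were then higher and 2 lower, with 11 higher and 1 lower past the adjusted threshold. Of all 14506 genes in that set, 2285 were higher and 2439 lower at an unadjusted p of 0.05. Past the adjusted threshold, 1527 were higher and 1429 lower, together 20.4% of all genes. In label set 1 the median was 0.19, and 11 of the 49 were higher and 0 lower at an unadjusted p of 0.05. Of all 14506 genes in label set 1, 565 were higher and 544 lower.

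*Egr3* had the smallest p of the list, followed by *Klf10*, a transcription factor of the Krüppel family, *Rgs2* and *Plk3*, a stress-responsive kinase. *Klf10* read 7.19 and 7.44 in Wistar S and 7.91, 7.91, 8.37, 8.31 and 7.91 in WAR S, without overlap. In naïve arrays it read 7.65, 7.50, 7.39 and 7.14 in Wistar N and 7.40, 7.41, 7.26 and 7.32 in WAR N, with overlap. Its interaction was 0.84 (adjusted p = 0.108), and it passed both without Wistar N replicates 2, 3 and 4 (1.07, adjusted p = 0.0329) and without replicate 1 (0.76, adjusted p = 0.0114). *Plk3* had an interaction of 0.47 (adjusted p = 0.124). Not all members had the pattern of *Egr3*. In *Vgf*, a secreted neuronal protein, the interaction of 1.37 (adjusted p = 0.190) came from a naïve difference of -1.14, with 0.23 in stimulated arrays.

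Promoters of the immediate early genes were read from RefSeq (build GRCr8), which held 37 of the 49. The cAMP response element, spelled TGACGTCA, is a binding site of the transcription factor CREB. It lay on either strand in the window from 250 bases before to 50 after the start in 7 of these 37 (18.9%), against 2.51% of 11950 promoters of tested genes. An E-box, CACGTG, lay in 9 of the 37 (24.3%, against 8.06%), the Egr site GCGTGGGCG in 2 (5.4%, against 0.85%), a serum response element in 1 (*Egr1*) and a heat shock element in 0. Of the 15 genes past the interaction threshold, 10 had a promoter in RefSeq, and none held any of these motifs apart from an E-box in *Mrps18b*. At all-gene shares of 0.04% to 8.06%, 10 promoters are too few to tell these genes from all genes. These are matches of letters, and binding was not measured. The serum response element was searched as a fixed string, which lay in 0.04% of the 11950 promoters. Other spellings of it were not searched, so its count among the immediate early genes covers that string only. The heat shock element was searched as a fixed pattern with some free positions, which lay in 0.54%. The 3 immediate early genes with an unadjusted p below 0.05 and this cAMP element are shown, chosen after their values were seen, with the 250 bases before the start, 5′ to 3′ on the strand of the gene and the element in capitals. They lie on chr12:25277021-25277270 (minus strand, *Vgf*), chr16:18769772-18770021 (minus strand, *Jund*) and chr19:40399123-40399372 (plus strand, *Ier2*).
Vgf: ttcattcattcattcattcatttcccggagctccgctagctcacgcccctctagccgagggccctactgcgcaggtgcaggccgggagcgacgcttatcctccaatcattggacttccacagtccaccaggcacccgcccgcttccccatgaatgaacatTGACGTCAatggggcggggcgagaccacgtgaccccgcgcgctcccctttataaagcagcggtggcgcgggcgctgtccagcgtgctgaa
Jund: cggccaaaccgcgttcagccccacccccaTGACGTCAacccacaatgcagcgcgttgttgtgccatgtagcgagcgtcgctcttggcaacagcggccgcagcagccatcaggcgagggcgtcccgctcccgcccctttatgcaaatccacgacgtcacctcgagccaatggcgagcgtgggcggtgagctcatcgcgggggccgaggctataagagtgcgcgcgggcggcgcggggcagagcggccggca
Ier2: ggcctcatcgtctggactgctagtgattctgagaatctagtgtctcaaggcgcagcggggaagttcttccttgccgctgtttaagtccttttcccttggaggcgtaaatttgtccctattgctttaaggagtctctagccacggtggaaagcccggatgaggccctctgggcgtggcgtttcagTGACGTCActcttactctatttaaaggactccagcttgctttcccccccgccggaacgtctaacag
The first base of the element lay 90 bases before the start in *Vgf*, 221 in *Jund* and 66 in *Ier2*. *Jund*, a partner of Fos in the AP-1 factor, had an interaction of 0.54 (adjusted p = 0.184), and *Ier2*, a small nuclear protein, of 0.25 (adjusted p = 0.291).

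The list of 31 neuropeptide precursor genes had a median of 0.10. Of them, 6 (19.4%) were higher and 0 lower at an unadjusted p of 0.05, against 7.33% and 7.64% of all genes. Beside *Pnoc* they included the cholecystokinin gene *Cck* (0.79, adjusted p = 0.124), *Adcyap1*, which encodes PACAP (1.09, adjusted p = 0.137), and the substance P precursor *Tac1* (0.96, adjusted p = 0.172). Their sources differed. In *Tac1* the strain difference was 1.08 with sound and 0.12 without, and in *Cck* it was 0.10 with sound and -0.69 without. *Tac1* also hung on the Wistar N arrays, at 0.21 without replicates 2, 3 and 4 and 1.21 without replicate 1. The median of the list was 0.25 and 0.02 in those sets.

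Neuronal markers moved with the same arrays. Of 22 genes, 7 (31.8%) were higher and 0 lower at an unadjusted p of 0.05, against 7.33% and 7.64% of all genes. The interaction of the list had a median of 0.16, and its stimulated strain difference had a median of 0.01. *Uchl1* (0.96, adjusted p = 0.163), an abundant neuronal deubiquitinase, and the neurofilament gene *Nefh* (0.97, adjusted p = 0.176) had the smallest p. *Gap43*, a growth cone protein, read 10.01 in Wistar N replicate 1 and 11.54, 11.36 and 11.50 in the other 3, against 9.85 to 10.34 in WAR N. Its interaction of 1.08 became -0.01 without those 3 arrays, and that of the neurofilament gene *Nefm* went from 1.27 to 0.09. The list as a whole did not follow these genes. Without those 3 arrays its median was 0.37, against 0.018 over all genes, with 20 of 22 positive and *Uchl1* at 1.32. Without replicate 1 the median of the list was 0.07, with 7 higher and 4 lower at an unadjusted p of 0.05. Of all 14506 genes in the set without replicate 1, 2285 were higher and 2439 lower. Neuronal genes had a mean level of 10.92 to 11.29 in the Wistar N arrays and 10.78 to 11.04 in those of WAR N, and of 11.02 to 11.13 in Wistar S and 11.07 to 11.21 in WAR S, and its part in the results for neuropeptides was not tested.

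The microglial list had the lowest median interaction of the 25 lists, -0.35. At an unadjusted p of 0.05, 2 of 23 genes were higher (8.70%, against 7.33% of all genes) and 7 lower (30.4%, against 7.64%). WAR was higher in both runs, with a median of 0.47 without sound and 0.14 with it. *P2ry12*, the purinergic receptor that marks resting microglia, showed this in each array. It read 8.67, 8.59, 8.96 and 8.63 in Wistar N and 9.98, 10.02, 9.95 and 9.94 in WAR N, against 9.19 and 9.09 in Wistar S and 10.08, 10.03, 9.95, 10.04 and 10.05 in WAR S. The strains were apart in both runs, by 1.26 and 0.89, and the interaction of -0.37 did not pass (adjusted p = 0.176), although it did without Wistar N replicates 2, 3 and 4 (-0.41, adjusted p = 0.0403). *Tyrobp*, a signalling adaptor of microglia, had -1.21 (adjusted p = 0.148), which shrank to -0.47 without Wistar N replicates 2, 3 and 4. *C1qc*, a complement component, went the other way (0.81, adjusted p = 0.190), with 0.12 in that set. The median of the list was -0.08 without those 3 arrays and -0.41 without replicate 1. Its mean level was 7.61 to 7.83 in Wistar N, 8.17 to 8.22 in WAR N, 8.02 to 8.09 in Wistar S and 8.22 to 8.50 in WAR S.

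Endothelial genes had a positive median strain difference in both runs. This median over 39 genes was 0.63 without sound and 0.56 with it, and the median interaction was 0.07. At an unadjusted p of 0.05, 3 genes were higher and 3 lower (7.69% each), close to the 7.33% and 7.64% of all genes. *Itm2a*, a membrane protein of endothelium, was higher in WAR by 1.71 with sound and 0.97 without, and its interaction of 0.75 did not pass (adjusted p = 0.156). *Slco1a4*, an anion transporter of the blood-brain barrier, had -0.996 (adjusted p = 0.192), and -0.25 without Wistar N replicates 2, 3 and 4. The interaction of the list was 0.57 without Wistar N replicates 2, 3 and 4 and -0.10 without replicate 1, so its sign followed the choice of Wistar N arrays. The mean level of the list was 8.21 in Wistar N replicate 1 and 7.39 to 7.46 in the other 3, against 8.07 to 8.47 in WAR N, 7.62 to 7.63 in Wistar S and 8.17 to 8.53 in WAR S, and the part of these cells in other results was not tested.

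Genes of the respiratory chain were split, and none passed. At an unadjusted p of 0.05, 8 of 67 were higher (11.9%, against 7.33% of all genes) and 18 lower (26.9%, against 7.64%). The median interaction was -0.19, from a strain difference of 0.30 without sound and 0.11 with it, but -0.01 without Wistar N replicates 2, 3 and 4. *Ndufv1*, a core subunit of complex I, was higher (0.66, adjusted p = 0.0637), as was *Cox5b* of complex IV (0.82, adjusted p = 0.101). *Cox7b*, also of complex IV, had -1.20 (adjusted p = 0.124), and *Ndufc2* of complex I -0.77 (adjusted p = 0.148). *Cox7b* read 11.52 in Wistar N replicate 1, within the WAR N range of 11.45 to 11.77, and 10.46, 10.37 and 10.42 in the other 3.

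Heat shock and chaperone genes had a median of 0.18. At an unadjusted p of 0.05, 6 of 26 were higher (23.1%, against 7.33% of all genes) and 1 lower (3.85%, against 7.64%). The median was 0.07 without Wistar N replicates 2, 3 and 4, 0.19 without replicate 1 and 0.07 in label set 1. *Hsp90ab1*, the constitutive cytosolic Hsp90, read 12.42, 12.82, 12.74 and 12.81 in Wistar N and 11.88, 12.09, 11.85 and 12.11 in WAR N. It read 12.21 and 12.24 in Wistar S and 12.19, 12.27, 12.31, 12.24 and 12.23 in WAR S. The naïve groups were apart and the stimulated groups overlapped. The interaction of *Hsp90ab1*, 0.73, did not pass (adjusted p = 0.0637), nor did that of the cochaperone *Bag3* (0.60, adjusted p = 0.133). In the proteasome list *Psmb6* was the 1 gene past the adjusted threshold over all arrays. The median over 39 genes was 0.01, with 2 higher and 2 lower (5.13% each) at an unadjusted p of 0.05, against 7.33% and 7.64% of all genes. Without Wistar N replicates 2, 3 and 4 the median was -0.21, against 0.018 over all genes in that set. Without replicate 1 it was 0.06, and 8 genes were higher and 4 lower past the adjusted threshold, which 20.4% of all genes passed in that set.

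**Figure D5:**
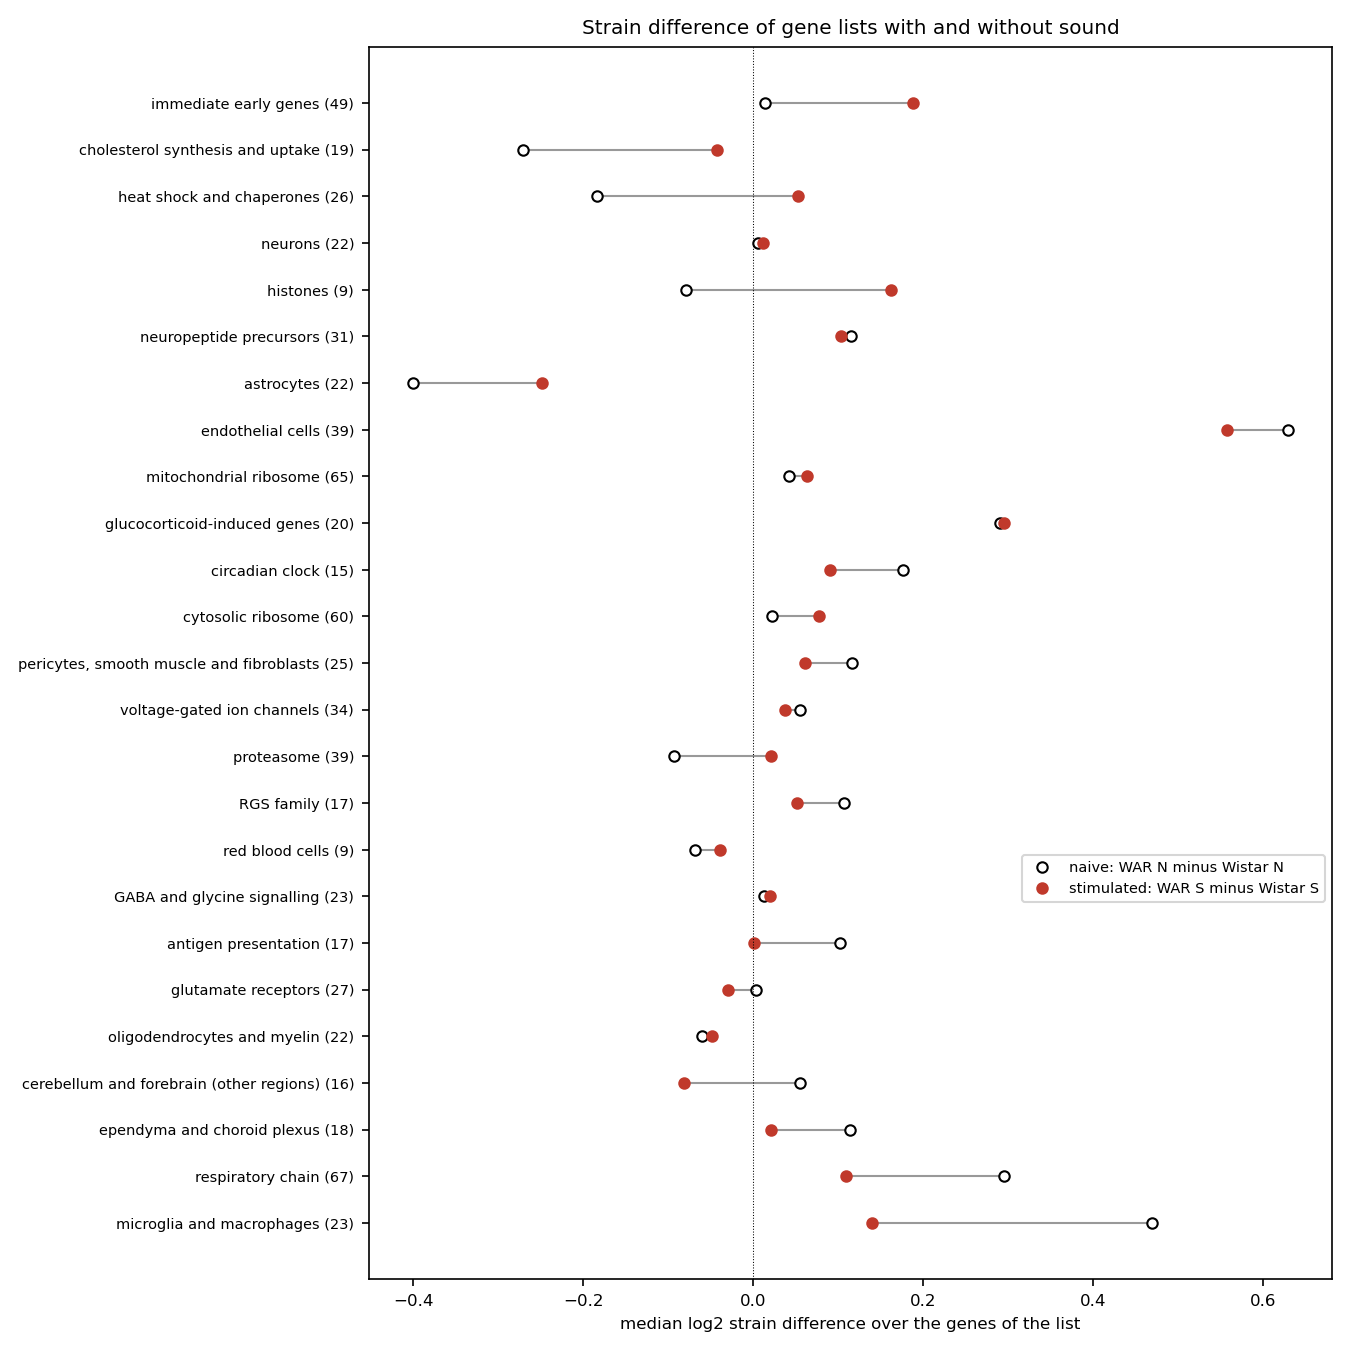
Median log2 strain difference over the genes of 25 lists in naïve arrays (open points) and stimulated arrays (filled points), ordered by the median interaction, with the number of measured genes in brackets. Immediate early genes go from 0.01 to 0.19, microglial genes from 0.47 to 0.14, and endothelial genes stay at 0.63 and 0.56.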

How the data were processed

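RNA of the IC was hybridised to Affymetrix Rat Gene 1.0 ST arrays, 1 array per sample, and 15 arrays were used. The deposited values are log2 expression levels, for which the processing notes in the labels name RMA without a version. Groups were read from the sample titles. Of 29214 probe sets, 15310 had 1 gene symbol, 323 several and 13581 none in the platform annotation, and 15279 matched RefSeq by gene ID. The probe set with the highest mean represented each of 14506 genes, which decided the choice for 527. Group means were fitted with limma 3.58.1 in R 4.3.3, and p-values were adjusted by the Benjamini-Hochberg method over all genes tested, with a threshold of 0.05. The study itself tested the stimulated arrays by another method. The titles call replicates biological; where they do not come from separate animals, p-values measure only the spread between these samples. The number of arrays limits the precision.

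The members and gene lists were chosen with earlier results of these data known. Named genes were up to 5 per class and direction by size of the interaction, up to 10 in each direction without overlap in a run, the next genes by p until 10 were named in a direction, *Egr3*, *Npy*, *Rgs2*, *Ttr*, *Abcb1a* and *Actb*, and up to 4 genes with the smallest p of each list. *Vgf*, *Jund* and *Ier2* fell outside this rule and were chosen after their values were seen. Alternatives covered normalization, filters, probe sets, spread, label sets, the replicate number and each array. Those without Wistar N replicates 2, 3 and 4 were added after seeing the data. Promoters came from RefSeq (GRCr8). Plots used matplotlib 3.10.9.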

Additional observations from a re-analysis of the deposited data

Results flagged for a closer look

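Each of the 15 genes past the threshold differed in its strain difference between stimulated and naïve arrays by the test of that difference. The interactions, in log2, were 0.97 for *Adprh*, -1.66 for *Psmb6*, -0.996 for *Gulp1*, -1.84 for *Fis1*, 1.15 for *Ppp2r5d*, 0.83 for *Hk1*, 1.23 for *Ap2m1*, 1.39 for *Pnoc*, 1.17 for *Puf60*, -0.94 for *Bloc1s5*, -0.78 for *Metrn*, 0.78 for *Cisd3*, -2.25 for *Terc*, 0.53 for *Fbxo25* and 1.19 for *Mrps18b*.

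Among 156 groups of 4 or 5 arrays, 22 held 1 array far from the others of its group. A rate of about 1 in 20 would hold for untied values of genes not chosen by their results. Here values were tied among stimulated arrays for 58.0% of all genes, and many of these genes were chosen by p, so the count cannot be set against that rate. Wistar N replicate 1 stood apart in *Fis1* (10.44), *Golga2* (8.52), *C1qc* (7.26), *Cox7b* (11.52), *Gap43* (10.01) and *Bsg* (12.83). In WAR N it was replicate 4 for *Ppp2r5d* (8.85) and replicate 3 for *Golga2* (7.92) and *H2bc18* (8.32). WAR S replicate 3 stood apart in *Ly96* (6.997), *Abcb1a* (8.74), *Plk3* (7.60), *Bag3* (8.43) and *Itm2a* (10.38). WAR S replicate 4 did so in *Bloc1s5* (8.92), *Guf1* (9.70), *Sumo2* (12.12), *Actb* (13.02), *Selplg* (9.67) and *Nefh* (8.78). The remaining arrays were WAR S replicate 5 in *Terc* (10.52) and WAR S replicate 1 in *Ier2* (5.95).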

How the results depend on the processing

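All 15 interactions kept their sign in every alternative in which they were tested (9 of them were not tested where genes with tied stimulated values were left out). The alternatives reuse arrays by which the 15 genes were chosen, so kept signs were likely beforehand. The number of genes past the threshold moved. It was 0 in label set 1 (1109 at an unadjusted p of 0.05), 6 with the label set as a block within each run, 74 with a separate spread for each run, 110 with array weights, 9 with a trended and robust prior, 42 after cyclic loess, 36 after subtraction of each array's median, 4 without genes that had tied stimulated values, 24 with the mean over probe sets and 531 without Wistar N replicates 2, 3 and 4. Leaving out 1 array gave 0 genes (without Wistar S replicate 2, 1337 at an unadjusted p of 0.05) to 2956 (without Wistar N replicate 1). For the stimulated strain difference, 60 genes became 14 in label set 1, 274 with a separate spread, 710 with array weights, 275 without Wistar N replicates 2, 3 and 4, and 7 to 261 leaving out 1 array, the extremes being Wistar S replicate 2 and Wistar N replicate 1. For the naïve strain difference, 3037 became 217 in label set 1, 879 with a separate spread, 1357 with array weights, 1588 without tied genes, 5355 over all probe sets, 1677 without Wistar N replicates 2, 3 and 4, and 1987 (without Wistar N replicate 3) to 5968 (without Wistar N replicate 1).

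Replicate numbers did not pair the arrays: correlations of deviations between same-numbered arrays ran from -0.31 to 0.63, with 3 of 18 above 0.1. With the replicate block, 0 genes passed the interaction (1560 at an unadjusted p of 0.05) and 16 the stimulated strain difference, so that 0 genes fell in the classes appears, vanishes and flips.

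The classes appears, vanishes and flips, 1, 12 and 2 genes, were 0, 8 and 7 by unadjusted p and 3, 8 and 3 by a size of 0.5, with 1 gene in no class. They were 0, 0 and 0 in label set 1, 9, 61 and 1 with a separate spread (3 in no class), 11, 92 and 6 with array weights (1 resized), and 0, 15 and 3 after quantile normalization over all arrays. Without Wistar N replicates 2, 3 and 4 they were 39, 452 and 8, with 3 resized and 29 in no class, and without replicate 1 they were 45, 2765 and 24, with 32 resized and 90 in no class. Signs turned without Wistar N replicates 2, 3 and 4 for *Ttr* (0.28), *Actb* (0.36, and -0.20 without replicate 1), *Gap43* (-0.011) and *Bsg* (0.19), and for *Actb* in label set 1 (0.048), after median subtraction (0.0032), without Wistar N replicate 4 (0.022) and without WAR N replicate 4 (0.0040). The cause was not tested.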

Other observations

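Genes of cholesterol synthesis and uptake had a median interaction of 0.25, as high as the immediate early genes, with 0 past the adjusted threshold by limma. At an unadjusted p of 0.05, 5 of 19 were higher (26.3%) and 0 lower, against 7.33% and 7.64% of all genes. The strain difference of the list had a median of -0.27 without sound and -0.04 with it. *Dhcr7*, which completes cholesterol synthesis, had 0.66 (adjusted p = 0.128), *Tm7sf2*, a sterol reductase, 0.57 (adjusted p = 0.108) and *Sqle*, squalene epoxidase, 0.80 (adjusted p = 0.288). *Sqle* turned to -0.14 without Wistar N replicates 2, 3 and 4, and the median of the list was 0.14 in that set and 0.27 without replicate 1.

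Genes of the cytosolic ribosome were spread in both directions, with a median of 0.03. At an unadjusted p of 0.05, 9 of 60 were higher (15.0%, against 7.33% of all genes) and 13 lower (21.7%, against 7.64%). Without Wistar N replicates 2, 3 and 4 the list was mostly lower, with 12 of 60 positive. Its median was -0.19 there, against 0.018 over all genes in that set. Without replicate 1 the median of the list was 0.04, with 22 higher and 15 lower at an unadjusted p of 0.05. Of all 14506 genes in the set without replicate 1, 2285 were higher and 2439 lower. *Rpl36*, a protein of the large subunit, had -1.39 (adjusted p = 0.0644), and *Rpl39*, another, had -1.56 (adjusted p = 0.114), which was -0.49 without Wistar N replicates 2, 3 and 4. Clock genes were likewise divided, with 4 of 15 higher (26.7%) and 3 lower (20.0%): the repressor *Bhlhe41* had 1.03 (adjusted p = 0.0657) and *Per3* -0.58 (adjusted p = 0.135).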
